A study of Mus musculus with 4 samples.

Results

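The miR-17-92 cluster and its paralogs miR-106b-25 and miR-106a-363 were followed through their guide strands in bronchoalveolar stem cells (BASCs) with and without depletion of c-Myc. The guide strand is the arm of a miRNA hairpin that is mostly kept. Members were the mouse assays of the table that bear their names, without the star strands. These were mmu-miR-17, mmu-miR-18a, mmu-miR-19a, mmu-miR-19b, mmu-miR-20a, mmu-miR-25, mmu-miR-92a, mmu-miR-93, mmu-miR-106a and mmu-miR-106b, 10 of 517 mouse miRNAs assayed, and the prefix is left out from here on. All 10 were found on card A of the 2 assay cards, with 1 well each. The rule that names them uses no measured value, though it was written with earlier results of these data known.

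The samples were 2 of control BASCs and 2 of Myc-depleted BASCs, all from ICR mice aged 4 to 6 weeks. Lung cells had been sorted as CD31neg, CD45neg, CD34pos and ScaIpos and plated on irradiated mouse embryonic fibroblasts. For later passages the methods of the study name these feeder cells, while its results name collagen-coated dishes. The depleted cells carried a c-Myc shRNA delivered by lentivirus and were kept as stable lines under puromycin. The labels call the other group only control, while the methods of the study describe a negative control vector of the same kind and the text also speaks of wild type. The methods give 2 effective c-Myc shRNA vectors, and which of them each depleted sample carried is not given in the sources used here. Nothing says that the replicates of a group were separate cultures, so the p-values measure only the spread between these samples, which may be technical. The cards hold no c-Myc assay, so the depletion itself was not checked here.

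MiRNAs repress mRNAs mainly through the seed, nucleotides 2 to 8 from the 5′ end, so members that share a seed are expected to share most targets. The 3 clusters are thought to have arisen by duplication, and each is transcribed as 1 long precursor that holds several hairpins. Their miRNAs are known for promoting growth and survival of cells: the miR-17 seed family represses the cell cycle inhibitor Cdkn1a and the transcription factor E2f1, and the miR-25/92 family the cell death gene Bcl2l11. c-Myc is known to bind at the miR-17-92 locus and to raise its transcription in several cell types. In the lung the cluster is known to be abundant in the embryo and to decline with maturation.

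The members fall into 4 seed families. Their mature sequences, from RefSeq on GRCm38.p6 and matched by miRNA name and arm, are shown because partners within a family are nearly identical outside the seed as well. The seed is in capitals.
miR-17: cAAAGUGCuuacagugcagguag
miR-20a: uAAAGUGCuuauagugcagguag
miR-93: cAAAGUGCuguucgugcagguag
miR-106a: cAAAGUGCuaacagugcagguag
miR-106b: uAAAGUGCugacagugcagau
miR-18a: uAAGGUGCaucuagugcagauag
miR-19a: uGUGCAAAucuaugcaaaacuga
miR-19b: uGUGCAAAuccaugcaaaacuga
miR-25: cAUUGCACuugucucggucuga
miR-92a: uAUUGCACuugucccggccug
Counted from 1 at the 5′ end, with the base of the first-named miRNA first, miR-17 and miR-106a differed by the single substitution U10A, and miR-19a and miR-19b by the single substitution U11C. miR-17 and miR-20a differed by C1U and C12U, and miR-17 and miR-93 at 4 positions, all outside the seed. miR-18a differs from the miR-17 family inside the seed, and it was the only member with its seed.

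By position, miR-17, miR-18a, miR-19a, miR-20a, miR-19b and miR-92a lie in this order on the plus strand at chr14:115043684-115044496, from the first base of the first mature sequence to the last base of the last. miR-106b, miR-93 and miR-25 lie on the minus strand at chr5:138165332-138165807, inside the gene Mcm7, which codes for a subunit of the DNA replication helicase. miR-106a lies on the minus strand at chrX:52742541-52742563, at the 5′ end of a cluster of 6 hairpins that spans chrX:52741697-52742563. miR-19b and miR-92a are also encoded in this X-linked cluster, with mature sequences at chrX:52741991-52742013 and chrX:52741854-52741874 identical to those on chromosome 14. Their signal therefore cannot be assigned to 1 of the 2 clusters.

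The measure of a well is its threshold cycle (CT), reached when the PCR product crosses a set level, and 1 cycle less stands for a doubling of RNA. Of 768 wells, 334 to 351 gave a CT in a sample. From each CT the mean U6 CT of its card was subtracted to give ΔCT, after CTs above 35 and empty wells were given the value 35. A lower ΔCT means more RNA. The log2 change is the control mean of ΔCT minus the depleted mean, so that a positive value is a higher level after depletion. Every member had a CT below 35 in all 4 samples, from 23.0 for miR-19b to 32.9 for miR-25. With a limit of 10 on the lowest ΔCT, 8 members were among the 80 mouse miRNAs tested, while miR-18a and miR-25 stayed above 10 in every sample and are given by their values.

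Before the results, 2 features of the deposited CTs bear on the members. In 13 miRNAs, 24 CTs carried 8 decimals where all other CTs carried at most 6, and these 24 were all in depleted samples. They each equalled the U6 mean of the sample plus a ΔCT of 6 significant digits. Among the members these were 8 CTs, those of miR-17, miR-20a, miR-106b and miR-19b in both depleted samples, and the other 6 members had none. As both depleted samples are involved, no change of these 4 members can be given without such a CT. The second feature is that CTs crowded just below whole cycles. On card A, 43.7% and 45.3% of the CTs of the controls and 32.6% and 52.9% of those of the depleted samples had a decimal part between 0.94 and 0.99, a window that is 5% of a cycle. Among the members this held for 22 of 40 CTs. The part of either feature in the results was not tested.

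**Figure D1:**
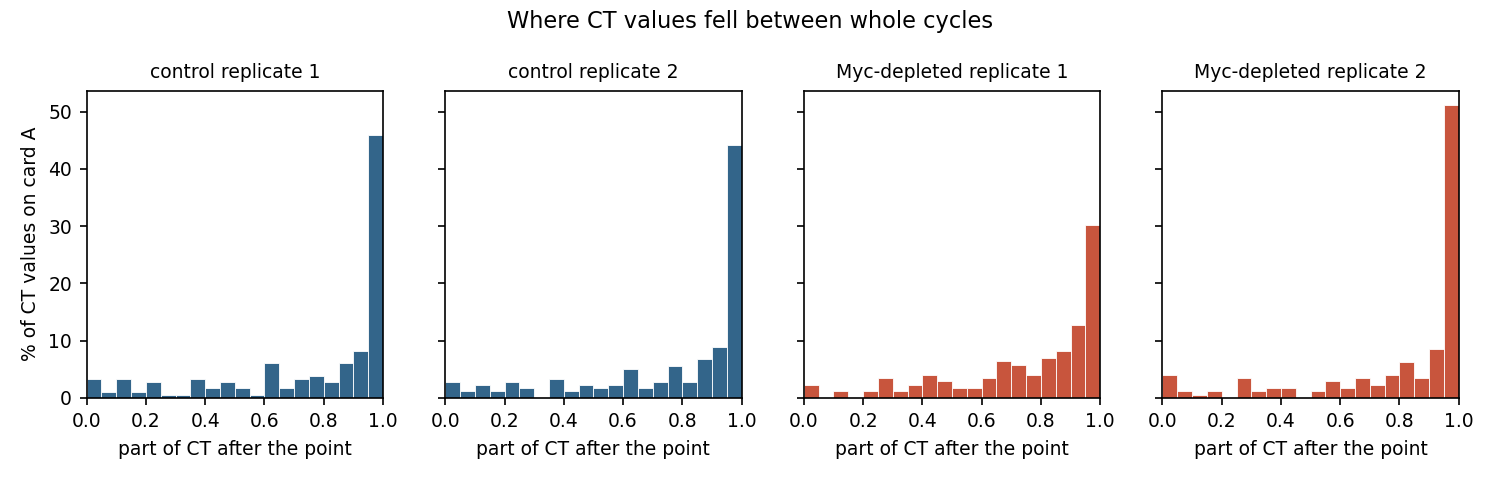
Decimal part of each CT on card A, in bins of 0.05 cycles, as a percentage of the CTs of the sample, 1 panel per sample. In each panel the last bin, just below the whole cycle, is the tallest.

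In the miR-17 seed family, miR-17 and miR-20a rose about 2-fold after depletion of c-Myc, miR-106b was higher by a like amount but entered the test through its depleted samples alone, and miR-93 and miR-106a did not pass the test. The ΔCT of miR-17 was 6.27 and 6.30 in control cells (replicates 1 and 2, an order kept throughout) against 5.12 and 5.10 in depleted cells. Both depleted samples were thus more than 1 cycle below both controls. The log2 change was 1.17 (limma, SE 0.11, adjusted p = 0.0106). The ΔCT of miR-20a was 8.08 and 8.05 in control cells against 7.032 and 7.002 in depleted cells. Its groups did not overlap either, with a log2 change of 1.05 (limma, SE 0.11, adjusted p = 0.0107). For miR-106b, which is encoded in Mcm7, the ΔCT was 11.1 and 10.9 in control cells against 9.83 and 9.88 in depleted cells. Its log2 change was 1.14 (limma, SE 0.13, adjusted p = 0.0107). It lay above the limit of 10 in both controls and was tested only because its depleted samples were below that limit, a condition that itself asks for a difference, so this p is no support. In the fit of all 263 detected miRNAs, without that limit, its adjusted p was 0.0997 (limma). In depleted replicate 2, the ΔCT of miR-106b rounded to 6 significant digits, 9.88097, was the same as that of the unrelated miR-365 in control replicate 2. In bulk samples, less RNA per cell and fewer cells that hold a miRNA cannot be told apart.

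The other seed partners behaved differently by value. The ΔCT of miR-106a, 1 base apart from miR-17, was 7.07 and 6.72 in control cells against 7.11 and 7.13 in depleted cells. Its depleted samples were slightly lower in level than both controls, with a log2 change of -0.23 (limma, SE 0.17, adjusted p = 0.417). miR-93, which shares its precursor with miR-106b, gave 9.37 and 8.85 in control cells against 8.96 and 9.12 in depleted cells. These groups overlapped, and the log2 change was 0.07 (limma, SE 0.23, adjusted p = 0.835). Its sign turned negative with 3 of the other 5 scalings, as the plot of changes by scaling shows.

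**Figure D2:**
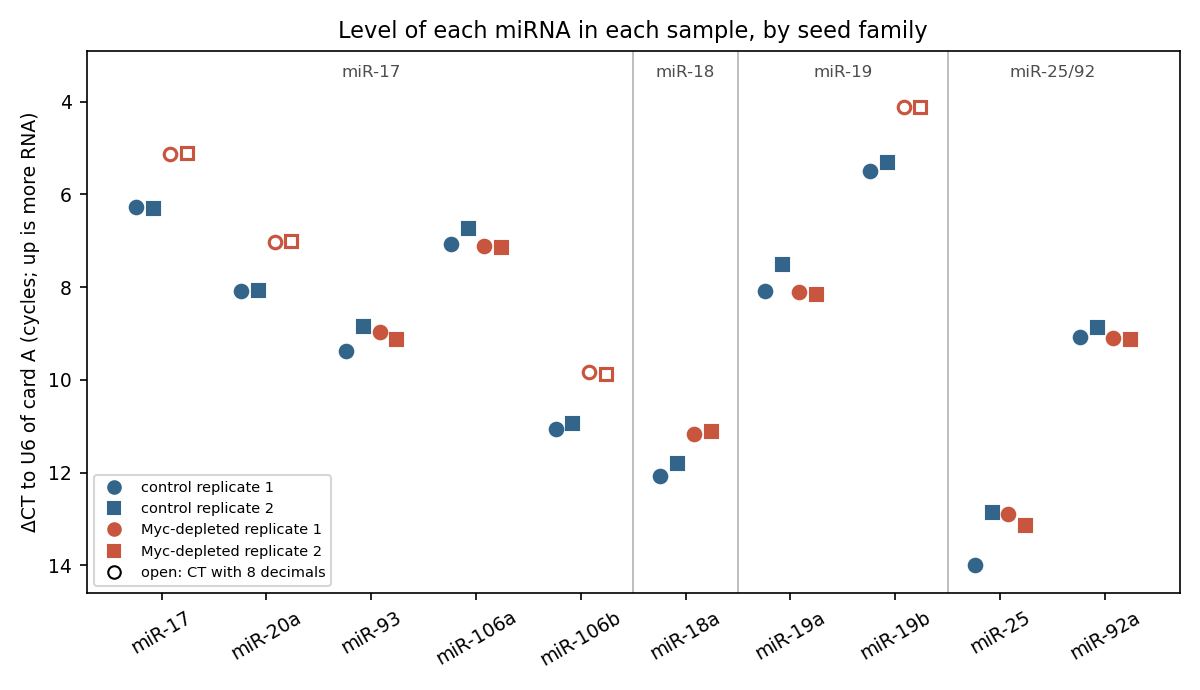
ΔCT to U6 of each member in each of the 4 samples, in cycles, with the axis turned so that more RNA is higher, and vertical lines between seed families. Open symbols are CTs with 8 decimals, and they make up both depleted samples of miR-17, miR-20a, miR-106b and miR-19b, the members that lie highest above their controls beside miR-18a.

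miR-18a, the single member of its seed family, was higher by value in both depleted samples, and it carried no CT with 8 decimals. Its CT was 30.98 and 30.89 in control cells against 30.04 and 29.94 in depleted cells. The ΔCT was 12.1 and 11.8 against 11.2 and 11.1, so the groups did not overlap. The log2 change of 0.79 was not tested in the set of 80. In the fit of all 263 detected mouse miRNAs, where only 0.76% were called, its adjusted p was 0.144 with a standard error of 0.22 (limma).

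In the miR-19 family miR-19b rose, and miR-19a did not pass the test. The ΔCT of miR-19b was 5.49 and 5.31 in control cells against 4.11 and 4.12 in depleted cells. This is the lowest ΔCT, and so the highest level by this measure, of all members in every sample. The log2 change was 1.28 (limma, SE 0.13, adjusted p = 0.0106), a 2.43-fold rise. For miR-19a, which differs from it by 1 base, the ΔCT was 8.08 and 7.50 in control cells against 8.11 and 8.14 in depleted cells. Both depleted samples were lower in level than both controls, and the log2 change was -0.34 (limma, SE 0.24, adjusted p = 0.411). With snoRNA135 and snoRNA202 as reference in place of U6, miR-19a was called, as lower, with a log2 change of -0.64 (limma, adjusted p = 0.0480), while miR-20a, called with U6, was not (limma, adjusted p = 0.0501).

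In the miR-25/92 family no change was called. The CT of miR-92a was 28.0 in all 4 samples, with a range of 0.00905 cycles. Among 159 mouse assays with 1 well and a CT in every sample, the median range was 1.11 cycles, only 2 had a range below 0.05 cycles, and that of miR-92a was the smallest. All 4 of its CTs lay in the window just below the whole cycle. After U6 was subtracted, the ΔCT was 9.07 and 8.86 in control cells against 9.10 and 9.12 in depleted cells, a log2 change of -0.15 (limma, SE 0.14, adjusted p = 0.486). Without any reference the change was 0.0044. miR-25, the weakest member, had a CT of 32.89 and 31.96 in control cells against 31.76 and 31.96 in depleted cells. Control replicate 1 stood about 1 cycle from the rest, the groups overlapped, and the log2 change of 0.42 was not tested in the set of 80 (adjusted p = 0.678 with a standard error of 0.48 in limma's fit of all detected miRNAs).

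Of the 8 members tested, 4 were called higher and 0 lower at an adjusted p below 0.05 in limma, and 0 were lower at an unadjusted p below 0.05. Of all 80 mouse miRNAs tested, 25% were called higher and 7.5% lower, 32.5% in either direction. One of the 4 is miR-106b, admitted through its depleted samples. With the limit of 10 applied to every sample, 3 of 7 members were called higher, against 25.5% of 55 miRNAs. With the limit applied to the mean of the 4 samples, it was again 3 of 7 members, against 21.5% of 65 miRNAs. On card A alone, where all members lie, 31.2% of 64 were called higher. Separation without a test was also common: the depleted samples lay above both controls for 4 of the 8 members and below both for 3, against 40% and 27.5% of all tested miRNAs. Over all 10 members the counts were 5 and 3, with 2 overlapping, and over all 263 detected miRNAs the shares were 26.6% and 31.9%. Without depleted replicate 1, and likewise without depleted replicate 2, no member was called in limma, and 5 miRNAs passed at an unadjusted p below 0.05, while the log2 changes of the 4 called members stayed between 1.04 and 1.29. The median log2 change of the 10 members was 0.61, that of all tested miRNAs 0.05 and that of the tested miRNAs on card A 0.23.

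The 4 members called were the 4 that carried CTs with 8 decimals. Their log2 changes lay between 1.05 and 1.28, with a median of 1.15. The 6 members without such CTs ranged from -0.34 to 0.79, with a median of -0.04. Among all tested miRNAs, 12 of the 13 with such CTs were called (92.3%) and 14 of the 67 without (20.9%). All of the 13 but miR-139-5p are among the miRNAs that the study names as changed, from the same samples. The share called among them is thus not independent of that list. It also depends on the limit on ΔCT. miR-106b and miR-34a, both among the 13, lay above 10 in both controls and were tested only through their depleted samples. With the 13 left out, 3 of 67 were called (4.48%), none of them a member. At an unadjusted p below 0.05, 19 of the 67 passed in that fit.

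Differences between 2 members of 1 sample do not depend on the reference RNA, since all lie on 1 card. There were 12 pairs that share a seed. In 9 of these the difference did not overlap between the groups, against 64.9% of all 2136 pairs of tested mouse miRNAs on 1 card. The pair of miR-25 and miR-92a holds a member outside the tested set, and pairs that reuse a member are not independent. The median size of the change was 1.03 for seed pairs and 0.81 for all pairs, on the log2 scale. For 1 pair an exact permutation test, two-sided, cannot give a p below 0.333 with these samples, and all 9 separated pairs stood at that value, so no pair passed, alone or adjusted over the 12.

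The pairs fell apart by the digits of their CTs, which follows from the changes of the single members given above and adds no further evidence. In all 7 pairs where only 1 partner carried CTs with 8 decimals, the groups were separate, with changes of 0.98 to 1.62 in size. Where both partners carried them, changes were 0.03 to 0.12 in size and 1 of 3 pairs was separate. Where neither did, they were 0.29 and 0.56, and 1 of 2 was separate. The largest was the pair of miR-19a and miR-19b. The log2 difference of miR-19a from miR-19b was -2.59 and -2.197 in control cells against -4.01 and -4.02 in depleted cells, a change of -1.62. miR-17 exceeded miR-106a by 0.797 and 0.429 in control cells against 1.99 and 2.03 in depleted cells, a change of 1.396. In contrast, miR-17 exceeded miR-106b, from another chromosome, by 4.79 and 4.63 in control cells against 4.71 and 4.78 in depleted cells, a change of 0.03 with overlapping groups.

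**Figure D3:**
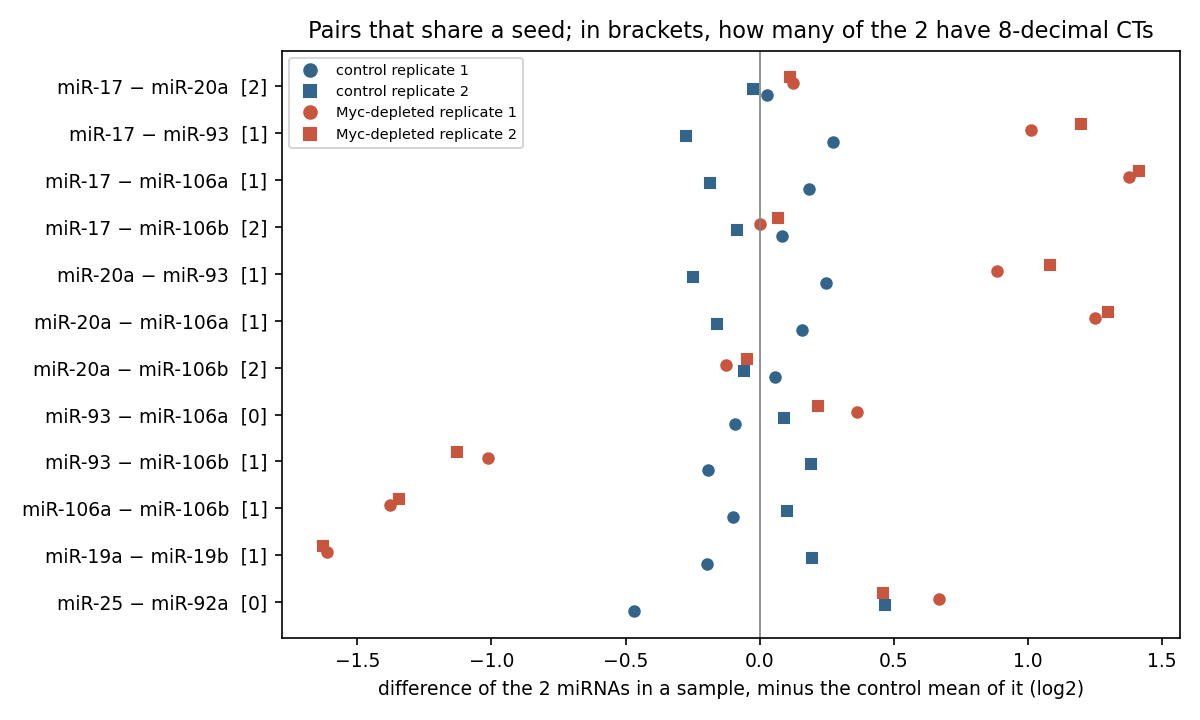
For each of the 12 pairs that share a seed, the log2 difference of the first and second miRNA within each sample, minus the mean of that difference in the controls, with the number of partners whose depleted CTs carry 8 decimals in brackets. Pairs marked 1 are the only ones with depleted samples about 1 or more from 0 in both depleted samples.

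In the depleted samples several of these differences stood close to whole cycles. miR-19b exceeded miR-92a by 4.994 and 4.995 there, and by 3.576 and 3.552 in the controls. miR-106a exceeded miR-92a by 1.991 and 1.987 there, and by 2.001 and 2.134 in the controls. The differences of miR-17 and miR-106a and of miR-19a and miR-19b, given above, were also within 0.03 of a whole cycle. Other differences were not near whole cycles: miR-20a exceeded miR-106b by 2.80 and 2.88 in the depleted samples. These pairs were picked, and no count over all pairs was made. CTs that both lie in the window just below a whole cycle must differ by close to a whole cycle, so this adds nothing to the crowding given above.

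Grouped by cluster of origin, members of 1 precursor had unequal changes by value. Of the 6 members of miR-17-92, 4 had a positive log2 change and 3 were called, with a median of 0.92 and a span from -0.34 for miR-19a to 1.28 for miR-19b. Of the 3 members of miR-106b-25, all had a positive change, with a median of 0.42. The span was from 0.07 for miR-93 to 1.14 for miR-106b. Only miR-106b was called, and as it was tested through its depleted samples alone, this call is no support. Of the 3 encoded in miR-106a-363, 1 was positive and called, miR-19b, which it shares with miR-17-92, and the median was -0.15. The difference between members of 1 cluster did not overlap between groups in 19 of 20 pairs, with a median size of 0.83 on the log2 scale. Of all pairs of tested miRNAs on 1 card 64.9% did not overlap, with a median size of 0.81. The cluster pairs also hold miR-18a and miR-25, which were not in the tested set. They reuse the same members, so they are not independent.

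Of the members encoded in miR-17-92, 4 can be set against miR-92a, the last in the cluster. As miR-92a and miR-19b are also encoded in the X-linked cluster, differences that hold them may mix the products of both clusters. Relative to miR-92a, miR-17 changed by 1.32, miR-20a by 1.20, miR-19b by 1.43 and miR-18a by 0.94 on the log2 scale, and the groups were separate in each. Of these only miR-18a has no CT with 8 decimals. Its log2 difference from miR-92a was -3.01 and -2.93 in control cells against -2.07 and -1.99 in depleted cells. miR-19a, in contrast, changed by -0.19 against miR-92a. In miR-106b-25, miR-93 exceeded miR-106b by 1.69 and 2.08 in control cells against 0.87 and 0.76 in depleted cells (change -1.07), although both come from adjacent hairpins.

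The order of levels, from the highest, was miR-19b, miR-17, miR-106a, miR-19a, miR-20a, miR-92a, miR-93, miR-106b, miR-18a and miR-25 in control BASCs. The samples of miR-19a and miR-20a overlapped there, and so did those of miR-92a and miR-93. In depleted BASCs miR-20a stood ahead of miR-106a and miR-19a, by 0.10 cycles over miR-106a, and miR-93 and miR-92a overlapped. Assays can differ in efficiency, which was not measured here, so an order between assays is less firm than a change of 1 assay.

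Summed over a seed family, as a level per 1000 U6 and under the assumption of equal efficiency, the miR-17 family stood at 26.1 and 28.6 in control cells against 46.7 and 46.9 in depleted cells. Of this sum miR-17 made up 49.7% and 44.5% in control cells against 61.5% and 62.1% in depleted cells. The miR-19 family stood at 25.9 and 30.8 in control cells against 61.6 and 61.0 in depleted cells, of which miR-19b gave 82.1% to 94.2%. In both sums the share of a single member whose depleted CTs carry 8 decimals was higher in the depleted samples. The miR-25/92 sum was lower than both by far, at 1.93 and 2.29 in control cells against 1.95 and 1.91 in depleted cells, and miR-18a alone gave 0.231 and 0.283 against 0.433 and 0.454.

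Among the scalings, the sizes of all these changes moved with the reference, while the differences between members moved only under quantile scaling. Outside the scalings, a ceiling of 32 and leaving out samples also moved some differences. The plot of changes by scaling gives each member under 6 scalings. miR-17, miR-20a, miR-106b, miR-18a and miR-19b were positive and miR-106a and miR-19a negative in all 6, while miR-93, miR-25 and miR-92a changed sign in at least 1. The median of all tested miRNAs went from 0.05 with U6 to -0.27 with centring of each sample on the median CT of both cards and to 0.27 with no reference, and the members moved with it. With the median of both cards as reference the log2 changes of miR-17, miR-20a, miR-106b and miR-19b were 0.78, 0.66, 0.75 and 0.89, and none was called (adjusted p from 0.0921 to 0.108 in limma, where 36 of the 80 miRNAs had an unadjusted p below 0.05). Under quantile scaling miR-106a was the only member called, as lower (log2 change -0.98, adjusted p = 0.0284 from limma).

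**Figure D4:**
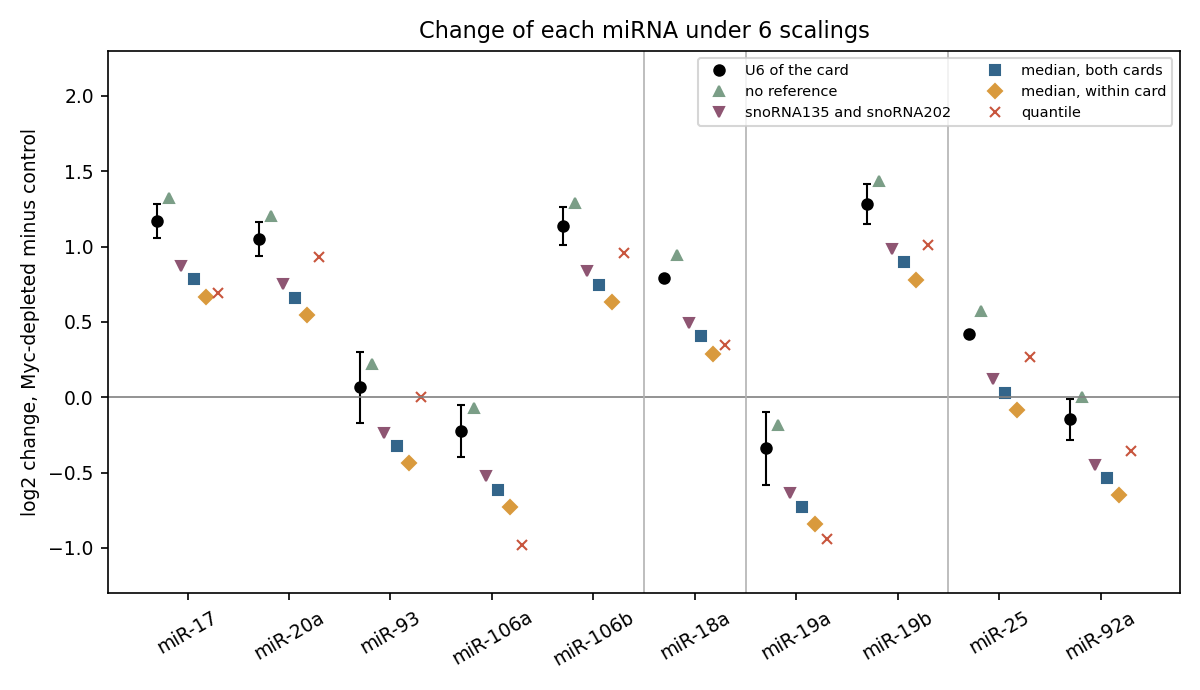
Log2 change of each member, depleted minus control, under 6 scalings, with bars of 1 standard error from limma on the values with U6 of the 8 members tested. The references shift all members together, quantile scaling shifts each by its own amount, and miR-93, miR-25 and miR-92a lie on both sides of 0.

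A further 13 assays covered other products of the clusters and other mouse miRNAs with a member's seed. None passed the limit on ΔCT, so none was tested. By the mouse assays, the mates of miR-106a that are particular to its cluster were at or near the detection limit. miR-18b and miR-363 gave no CT in any sample, and miR-20b gave a CT of 32.4 and 34.0 in control cells against 32.3 and 33.0 in depleted cells, groups that overlapped. The sequences of miR-20b and miR-18b are shown because they differ from miR-17 and miR-18a only outside the seed, miR-17 to miR-20b by U10C and C12U and miR-18a to miR-18b by A18U and A20U.
miR-20b: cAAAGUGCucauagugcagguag
miR-18b: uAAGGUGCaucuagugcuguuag
miR-106a itself, at a CT of 25.8 to 26.0, thus lay more than 6 cycles below the other mouse assays for products particular to that cluster. The substitution from miR-17 to it is U10A, and the CT of miR-17 was 23.9 to 25.4. Whether an assay also reads a partner that is 1 base away was not tested. Of the miRNAs from other loci with the miR-25/92 seed, miR-367 gave no CT, and miR-32 was below 35 in 1 sample only, at a CT of 34.2 in depleted replicate 1.

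Star strands, the other arms of the member hairpins, were assayed on card B. Of 8, the assays of miR-92a* and miR-20b* gave no CT, and miR-18a*, miR-20a* and miR-93* were below 35 in all samples. The CT of miR-93*, the strongest, was 29.96 and 30.47 in control cells against 29.95 and 29.96 in depleted cells. For miR-20a*, the partner of a member that rose, the ΔCT was 13.9 and 14.2 in control cells against 14.9 and 15.0 in depleted cells, a log2 change of -0.88 by value, opposite in sign to that of miR-20a. The change of miR-93* went from 0.26 to -0.46 when U6 was subtracted. For miR-20a* the CTs without a reference and without the ceiling of 35 gave a change of 0.09. They include a CT of 35.97 in 1 well of control replicate 2, which the ceiling lowers to 35. The 0.09 and the -0.88 of miR-20a* thus differ by the ceiling as well as by U6. U6 on card B was 0.72 cycles lower in the depleted samples, against 0.15 on card A, so guide and star strands can be set side by side only with this difference in view. miR-106b* gave a CT in 6 of 8 wells, miR-17* in 3 of 8 and miR-19a* in 1 of 8.

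Outside the members and the 13 other assays, the tested miRNAs whose pattern over the 4 samples was most like that of miR-17 were miR-34a, miR-214 and miR-125b-5p, with root mean square differences of 0.0743, 0.0841 and 0.0874 on the log2 scale after centring. The members miR-20a and miR-106b were nearer, at 0.0631 and 0.0659. miR-19b was farther than the 3 outside miRNAs, at 0.0942, and the other members tested were farther still. All 3 outside miRNAs also carried CTs with 8 decimals in both depleted samples. The ΔCT of miR-34a was 11.1 and 10.9 in control cells against 9.80 and 9.79 in depleted cells. Like miR-106b, it was in the tested set only through its depleted samples, which itself asks for a rise, so its likeness is no support. Those outside most like miR-92a were miR-27a, miR-155 and miR-125a-5p, at 0.0101, 0.0216 and 0.0350, and none of them carried such CTs. The member most like miR-92a, miR-106a, was farther off than these, at 0.0612.

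Markers of cell types were read in the same samples. Bronchoalveolar stem cells, as the labels name them, are a cell type of the lung epithelium. The epithelial miR-200 family with miR-203 and miR-205 was at or near the detection limit: 5 of 7 assays had a CT below 35 in any sample, 1 in all, miR-203 and miR-205 in none, and the summed level per 1000 U6 was 0.0986 to 0.435 in control cells against 0.0281 to 0.0419 in depleted cells. Of 6 mesenchymal markers 5 were assayed and seen. Their summed level was 34.4 and 39.6 in control cells against 50.2 and 48.2 in depleted cells, with the groups separate. By single marker, only miR-214 and miR-199a-3p were separate in the direction of the called members. The CT of miR-199a-3p was 25.97 and 25.72 in control cells against 24.78 and 24.97 in depleted cells. The groups overlapped for miR-143 and for miR-145, with a CT of 24.98 and 24.88 against 24.99 and 24.83. miR-199a-5p gave a CT only in control replicate 1, at 28.55, and in depleted replicate 2, at 30.04. By value its level was thus lower in that depleted sample, opposite to the called members. One of the 5, miR-214, has CTs with 8 decimals. The endothelial miR-126 strands summed to 1.08 and 1.22 in control cells against 0.283 and 0.252 in depleted cells, and both depleted CTs of miR-126-3p carry 8 decimals. Blood markers stayed at or below 0.307 and muscle markers at or below 0.275, with miR-1 and miR-133b never below a CT of 35. The part of other cell types in the members' changes was not tested.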

How the data were processed

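The authors deposited, in PCR cycles (CT, a scale other than counts), the value of each TaqMan low density array well; per the labels, RNA was reverse transcribed with rodent Megaplex primers and run by real-time PCR. The study's methods name RQ manager, and the submitters' processing notes list Partek 6.4. No columns of other samples were present. From the CTs, a ceiling of 35 was set, wells of an assay were averaged and the mean of the 4 U6 wells of the card was subtracted. Minus ΔCT of the 80 mouse miRNAs with a lowest ΔCT below 10 was tested with limma 3.58.1 in R 4.3.3 (lmFit, eBayes, two-sided, Benjamini-Hochberg), control against depleted, with no block. Pairs of members were compared by exact permutation over samples. Python 3.11.15 and pandas 2.3.3 prepared tables, and the scripts were tested on simulated data. All 10 members are named, with 13 other products and, for likeness, the 3 nearest miRNAs to miR-17 and to miR-92a. Members and lists were chosen with earlier results of these data known. Alternatives were other references, ceilings, filters and variance models, a replicate block and leaving out each sample. Card A alone, leaving out empty wells, leaving out miRNAs with CTs of 8 decimals and crossed replicate numbers were added after seeing the data. With 2 samples per group the precision is limited to 2 residual degrees of freedom per miRNA before pooling.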

Additional observations from a re-analysis of the deposited data

Results flagged for a closer look

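Of 6 assays for rat miRNAs of these clusters, 5 gave no CT and rno-miR-20b-5p gave one in every well, with a mean CT of 30.8 over the 4 samples, while the plant control assay gave none in 8 wells. It is an assay outside the mouse comparison with a signal above the control's. Its CT was 30.8 and 30.6 in control cells against 30.9 and 30.9 in depleted cells, and after the U6 of card B was subtracted its log2 change was -0.97. The mouse miR-20b assay on card A had CTs of 32.3 to 34.0. What the rat assay reads in mouse RNA was not tested.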

How the results depend on the processing

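The 4 called members kept a positive log2 change under every alternative that gave a value, and their calls depended on the setting. Against 26 miRNAs and 4 members called, the counts were 3 and 0 with median centring over both cards, 1 and 0 within each card, 4 and 1 with quantile scaling, 2 and 0 with no filter and 3 and 2 with analysis of variance per miRNA. With ΔCT below 10 in all samples, or on average, 17 miRNAs and 3 members were called, and 3 miRNAs without those with CTs of 8 decimals. Leaving out each sample gave 0 to 25 miRNAs (21 and 25 without control replicates 1 and 2, 1 and 0 without depleted replicates 1 and 2) and 0 to 4 members. At an unadjusted p below 0.05 in limma, 5 miRNAs passed without either depleted replicate. Of the miRNAs called in either direction, 76.9% of 26 were higher with U6, against 33.3% of 3 with median centring over both cards. The share was 66.7% of 18 with the snoRNAs, 92.9% of 28 with no reference, 0% of 1 within each card and 0% of 4 with quantile scaling. Same-numbered samples deviated in opposite directions (r = -0.44 across 80 miRNAs, which are not independent), so the numbers do not pair them. The replicate block called 0 miRNAs and 0 members in limma (26 at an unadjusted p below 0.05), with an adjusted p of 0.0686 for each of them, and the crossed block, added after seeing the data, 33 and 4.

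The median of the 10 members, 0.61, was 0.22 with median centring over both cards, 0.10 within each card, 0.31 with the snoRNAs, 0.76 with no reference, 0.31 with quantile scaling and 0.43 with a ceiling of 32, and 0.25 to 0.97 with each sample left out. The sign of miR-93 turned to -0.32 with median centring over both cards, -0.44 within each card, -0.23 with the snoRNAs, and lay between -0.20 and 0.33 with each sample left out. miR-25 turned to -0.085 within each card and -0.029 with a ceiling of 32, and lay between -0.15 and 0.99 with each sample left out. miR-92a turned to 0.0044 with no reference. The cause was not tested. Of 204 member changes under alternatives, 9 turned sign. Seed pairs with separate groups numbered 9 to 12 and cluster pairs 16 to 20 under the 13 alternatives that change values or samples, and without pairs that hold CTs of 8 decimals 1 of 2 and 5 of 5 were separate. The number of samples, and CTs near 35 for miR-20b and the star strands, limit what can be seen.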
